A study of Homo sapiens with 3 samples.

Results

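The S100 proteins are small calcium-binding proteins, and 10 of their genes (*S100A2*, *S100A3*, *S100A4*, *S100A6*, *S100A10*, *S100A11*, *S100A13*, *S100A14*, *S100A16* and *S100P*) were followed in the deposited expression table of an *APC* silencing experiment. The members were found by their gene symbols, and all 10 were among the 23131 genes listed. HCT-116 is a human colon carcinoma line described in the labels as APC wild-type, CTNNB1ΔSer45. This means that APC is intact while the cells carry a form of β-catenin that lacks a serine needed for its degradation. Cells were transfected on consecutive days, 2 times in all, with a pool of anti-*APC* siRNA, with a pool of scrambled siRNA, or with reagent and no siRNA, and were harvested 48 hours after the second transfection. There was 1 library for each of these 3 groups. The table used here holds the anti-*APC* library and the library without siRNA, which the labels call both untransfected and mock, and it is called untransfected below. No value of the scrambled siRNA library is used here, so an effect of *APC* loss and an effect of siRNA delivery cannot be told apart. All groups carry the same β-catenin mutation, so WNT signaling is already active in the control cells.

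S100 proteins fold around a pair of EF-hand loops, pair up into dimers, and change shape when calcium binds, which exposes a surface for partner proteins. They have no enzyme activity of their own. Inside cells they act through annexins, myosin and other partners, and several are released and bind cell surface receptors such as RAGE. Most of the genes lie in a cluster on chromosome 1, next to genes of the epidermal barrier. In the colon, S100 proteins are studied as markers of epithelial state and of invasion. *S100A4* (metastasin) is described as a WNT target gene in colon cancer cells.

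Values are FPKM, fragments per kilobase of transcript and per 1000000 mapped fragments (M), so levels of different genes can be compared per length. Ratios are anti-*APC* siRNA over untransfected, and a gene was called measured where the authors' table marks it as testable (status OK), both libraries were above 0 and their mean was at least 1 FPKM. With 1 library per group no difference has a replicate check and no p-value is given. Genes past 1.5-fold are called by size alone. The table holds no read counts, but genes with very few reads show what 1 read is worth. Those with reads in only 1 library place the depth near 20.8 M reads for the anti-*APC* library and 22.7 M reads for the untransfected one. From these depths and the transcript lengths an approximate 95% counting interval was computed for each ratio. It covers counting error only, and not the differences between cultures or library preparations.

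The targeted transcript was lower in the library labelled as silenced. *APC* was at 3.43 FPKM with its siRNA and at 9.15 FPKM in untransfected cells, a log2 ratio of -1.41. The WNT feedback gene *AXIN2* was at 28.7 and 4.11 FPKM, a log2 ratio of 2.81, and *CTNNB1* was at 178 and 177 FPKM. The cells carried epithelial transcripts, with *EPCAM* at 170 FPKM after anti-*APC* siRNA and 190 FPKM without, whereas *VIL1*, *CDX1* and *KRT20* stayed under 1 FPKM in both libraries. None of 6 leukocyte and none of 4 endothelial marker genes was measured, and of 6 fibroblast markers only *COL1A1* was, at 3.08 and 2.85 FPKM. Summed over each list, leukocyte markers came to 0.388 FPKM after anti-*APC* siRNA and 0.366 FPKM without. The fibroblast sums were 3.13 and 2.88 FPKM, and the endothelial sums 0.102 and 0.128 FPKM.

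The bases before the transcription starts are shown first. RefSeq lists 14 starts for the 10 members. The lines give 30 bases from position -40 to position -11 before the start, 5′ to 3′ on the strand of the gene, with the letters TATAA in capitals. The first 3 belong to the members that were at least 1.5-fold lower after anti-*APC* siRNA, the next to *S100A11*, an abundant member whose level differed little, and the last pair to other members whose starts carry the letters.
S100A4: tggctggggTATAAataggtcagacctctg
S100A6: caccgaccgcTATAAggccagtcggactgc
S100A14: cttcccccaggTATAAgagctgagctcagg
S100A11: gtaaggcttgggcaaggctgggccgggaag
S100A13, the middle of its 3 starts: tccccgctgctTATAAacctcagccctgag
S100P: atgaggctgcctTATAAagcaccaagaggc

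On GRCh37 these stretches match chr1:153518293-153518322 for *S100A4*, chr1:153508478-153508507 for *S100A6*, chr1:153588812-153588841 for *S100A14* and chr1:152009491-152009520 for *S100A11*, all on the minus strand. The *S100A13* stretch is at chr1:153599992-153600021 on the minus strand and the *S100P* stretch at chr4:6695565-6695594 on the plus strand. The *S100A6*, *S100A14* and *S100A13* stretches overlap exons that GENCODE annotates on the same strand, and the *S100A4*, *S100A11* and *S100P* stretches overlap none. Not all of them therefore lie outside annotated transcripts. The *S100A4* and *S100A11* stretches also lie within the bounds that GENCODE gives their genes. Of the printed stretches only that of *S100P* lies outside the bounds of its gene. TATAA on the sense strand between positions -40 and -20 was found at 5 of the 14 starts, of 5 members, and at 3.82% of all 35116 RefSeq starts. The search for these letters was chosen after the values and sequences had been seen, and a link between them and the levels was not tested. The letters were at no start of *S100A2*, *S100A3*, *S100A10*, *S100A11* or *S100A16*, and *S100A16* had a log2 ratio of -0.52. Of the motifs that the study centred on, the TCF/LEF letters CAAAG, preceded by 2 bases that are each A or T, were searched on both strands of the 250 bases before each start. They were at none of the 14 member starts and at 11.96% of all starts. The AP-1 letters TGACTCA and its reverse complement TGAGTCA were before a start of *S100A2* (ggagtgggctgTGACTCAcaggcatgtca, chr1:153538355-153538383, motif in capitals) and of *S100A3* (ggaatcaggagTGAGTCActgggctagca, chr1:153521942-153521970), and at 4.20% of all starts. A match is a description of the letters and not evidence of binding, and distant regulatory sequence was not searched.

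Of the 10 members, 9 were measured. Among these 9, 3 were at least 1.5-fold lower after anti-*APC* siRNA (*S100A4*, *S100A14* and *S100A6*), against 6.52% of all 11874 measured genes, and none was at least 1.5-fold higher, against 2.51%. At levels of at least 10 FPKM the count was 3 of 7 members, with 3.12% of all such genes lower by that much, and at 30 FPKM or more it was 2 of 6, with 2.7% of genes. The shares of all genes higher by that much were 1.85% at 10 FPKM and 2.34% at 30 FPKM, where no member was. Of the 8 measured members alone at their locus the same 3 were lower and none was higher, against 5.96% and 1.91% of such genes. Lower by any amount were 7 of the 9 members, where 58.6% of measured genes were lower. The same count was 5 of 7 from 10 FPKM, against 53.3% of genes, and 4 of 6 from 30 FPKM, against 49.4%. The median log2 ratio of the 9 members was -0.31 and that of all measured genes was -0.05. Subtracting this median left the same 3 members past 1.5-fold.

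**Figure D1:**
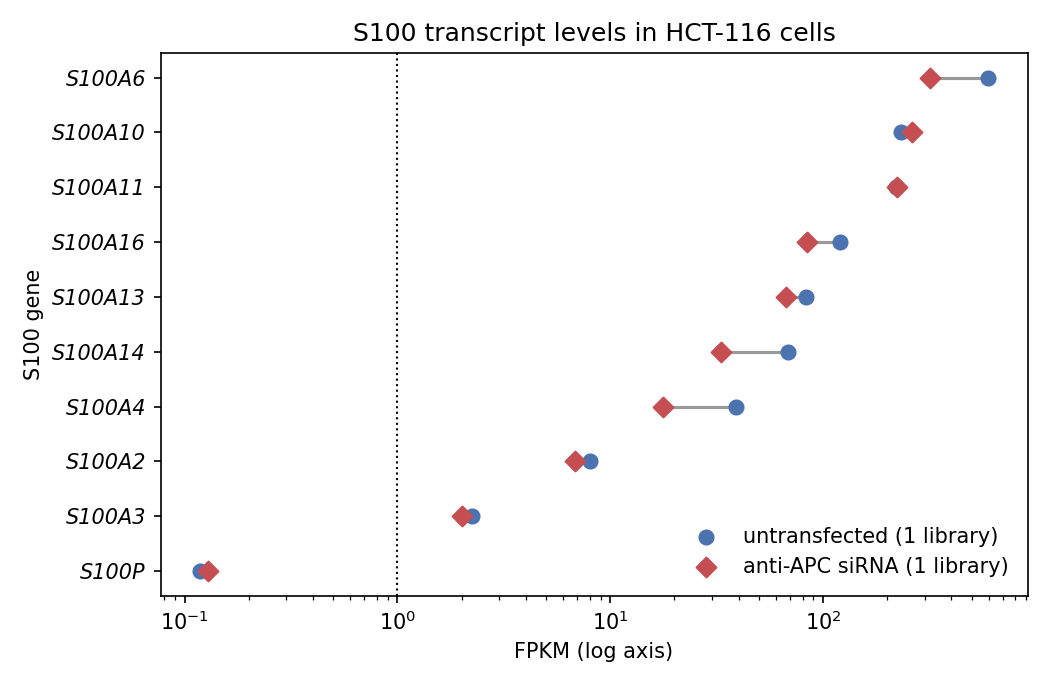
FPKM of the 10 S100 members (log axis) in the untransfected library (circles) and the anti-*APC* siRNA library (diamonds), 1 library each, with a dotted line at 1 FPKM. The gap is widest for *S100A4*, *S100A14* and *S100A6*, whose anti-*APC* values lie to the left, while both symbols nearly coincide for *S100A11*, and *S100P* lies well under 1 FPKM.

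*S100A4*, which encodes metastasin, a partner of non-muscle myosin that promotes cell motility, was at 17.7 FPKM after silencing and at 39.1 FPKM in untransfected cells. Its level was therefore lower, with 0.453 of the untransfected value remaining. The log2 ratio was -1.14 with a counting interval of -1.39 to -0.90, from about 189 and 455 reads. Only 0.859% of measured genes had a lower ratio, while *AXIN2* in the same libraries was higher. GENCODE annotates *S100A4* on chromosome 1 of GRCh37 from 153516089 to 153522612 on the minus strand, with 3 exons in its main transcript. A longer form of the annotated gene runs over *S100A3* on the same strand, but the authors' table gave each a locus of its own.

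*S100A14* encodes a member found mainly in epithelia. It was at 33.1 FPKM after silencing and 68.2 FPKM without it, with a log2 ratio of -1.04 with a counting interval of -1.17 to -0.92. The gene lies from 153586731 to 153589462, and its level after silencing was 2.06-fold lower. *S100A6*, calcyclin, is associated with proliferating cells and binds the ubiquitin ligase adaptor CACYBP. It was the most abundant member in both libraries, at 319 FPKM after silencing and 595 FPKM in untransfected cells. Its log2 ratio was -0.90, with a counting interval of -0.96 to -0.83 from about 2879 and 5862 reads. In the untransfected library it ranked at place 169 of all rows, above 98.6% of measured genes, and after silencing it ranked at place 287. *S100A6* is annotated from 153507075 to 153508720.

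*S100A16*, a widely expressed member, lay just inside the 1.5-fold limit. It was at 84.0 FPKM after anti-*APC* siRNA and 120 FPKM without, 1.43-fold lower, with a counting interval of 1.36-fold to 1.52-fold that includes the limit. The gene lies beside *S100A14*, from 153579362 to 153585621. *S100A13*, which takes part in the unconventional export of growth factors such as FGF1, was at 66.8 and 82.8 FPKM, a log2 ratio of -0.31. Cuffdiff placed it at 1 locus with *S100A1*, which GENCODE annotates on the opposite strand, and with *CHTOP*, an mRNA export factor. Whether reads were assigned by strand is not given in the sources used here. Summed over these 3 genes the level was 118 FPKM after silencing and 135 FPKM without it, with a log2 ratio of -0.20.

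*S100A10*, also called p11, is the member that no longer binds calcium and holds annexin A2 in a membrane complex. It was at 261 FPKM after anti-*APC* siRNA and 232 FPKM without, 1.13-fold higher. The log2 ratio was 0.17, with a counting interval of 0.10 to 0.24 that does not include 0. *S100A11*, a partner of annexin A1, was at 223 and 221 FPKM, a log2 ratio of 0.02 with a counting interval of -0.06 to 0.09. Its sign was negative when each library was rescaled to the same total, at -0.05. These members lie from 151955391 to 151966335 and from 152004982 to 152020383, and neither gene was past 1.5-fold. GENCODE lists 8 pseudogenes of *S100A11* in the genome and the table lists none of them, so reads shared with a pseudogene would be uncertain here.

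The remaining members were low. *S100A2*, a nuclear member of basal epithelial cells, was at 6.85 FPKM after anti-*APC* siRNA and 8.06 FPKM without, and its counting interval of -0.56 to 0.08 includes 0. *S100A3*, a cysteine-rich member known from hair, was at 2.00 and 2.23 FPKM. At about 31 and 38 reads its interval was -0.84 to 0.53, so a difference smaller than this was not detectable at this depth. *S100P*, known from placenta and from pancreatic and colon tumors, was at 0.129 FPKM after anti-*APC* siRNA and 0.118 FPKM without, and it was not measured. These values are worth about 1.3 reads in each library, and their log2 ratio of 0.13 equals the 0.13 that the same number of reads in both libraries gives. No difference in *S100P* could be detected.

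**Figure D2:**
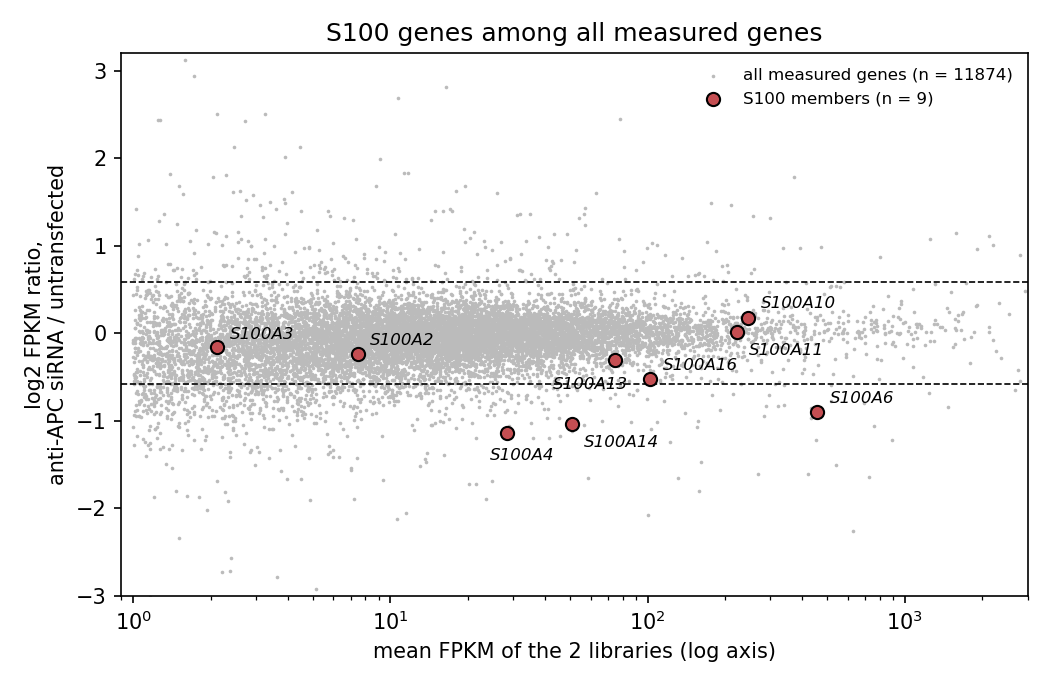
Log2 FPKM ratio (anti-*APC* siRNA over untransfected) against the mean FPKM of both libraries (log axis) for 11874 measured genes in grey and the 9 measured S100 members in red, with dashed lines at 1.5-fold and 25 genes outside the plotted range. *S100A4*, *S100A14* and *S100A6* lie below the lower line, and *S100A10* and *S100A11* lie near 0 at high levels.

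The order of the levels was the same in both libraries for all 10 members, from *S100A6* through *S100A10*, *S100A11*, *S100A16*, *S100A13*, *S100A14*, *S100A4*, *S100A2* and *S100A3* to *S100P*. The neighbours *S100A10* and *S100A11* were close, at 232 and 221 FPKM in untransfected cells. No spread over replicates is available to separate neighbours in this order. Summed over the members, S100 transcripts came to 1014 FPKM after silencing and 1368 FPKM without it, with a log2 ratio of -0.43. *S100A6* made up 43.5% of the sum in untransfected cells and 31.5% after silencing, and its own difference was 77.8% of the net difference. Without *S100A6* the sums were 695 and 773 FPKM, a log2 ratio of -0.15 (this alternative was chosen after the data were seen). *S100A10* and *S100A11* together with *S100A6* dominate both sums, as the plot of the summed level shows.

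**Figure D3:**
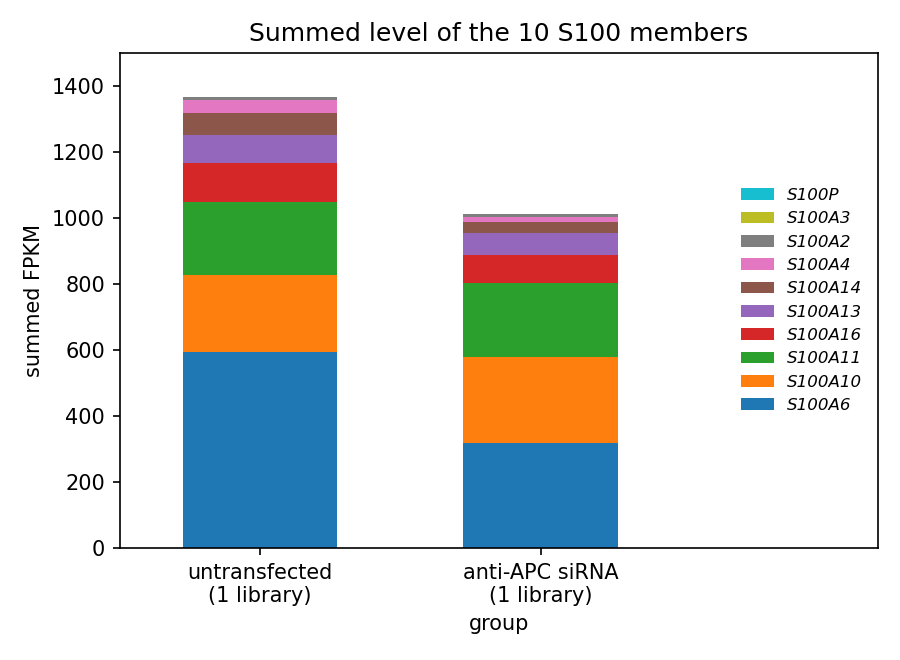
Summed FPKM of the 10 S100 members in the untransfected and the anti-*APC* siRNA library (1 library each, no error bars), stacked by gene with the most abundant at the bottom. The bar is 1368 FPKM high in untransfected cells and 1014 FPKM high after silencing, and the *S100A6* segment shrinks from 595 to 319 FPKM while the *S100A10* segment goes from 232 to 261 FPKM and the *S100A11* segment from 221 to 223 FPKM.

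Position along the chromosome was not part of the choice of members. On chromosome 1, 9 of the 10 members lie on the minus strand, *S100A10* and *S100A11* 1.49 Mb away from a tight group that runs over 96.8 kb from *S100A6* to *S100A13*. At 1 end of the group the loci that Cuffdiff gave *S100A6*, *S100A5* and *S100A4*, whose bounds differ from those of GENCODE, span 11.2 kb. *S100A5*, which is not one of the 10, was at 0.391 FPKM after silencing and 0.858 FPKM without it, with a log2 ratio of -1.13 that rests on about 6.2 and 15 reads and has a counting interval of -2.49 to 0.23. The next genes, *S100A3* and *S100A2*, had ratios of -0.16 and -0.24 on the log2 scale. Beyond them the Cuffdiff loci of *S100A16* and *S100A14* span 9.42 kb, with ratios of -0.52 and -1.04, followed by *S100A13* at -0.31, *S100A1* at -0.11 and *CHTOP* at -0.03. The members past 1.5-fold were thus not all next to each other. *SPRR2D*, between *S100A11* and *S100A6*, had a log2 ratio of 1.62.

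**Figure D4:**
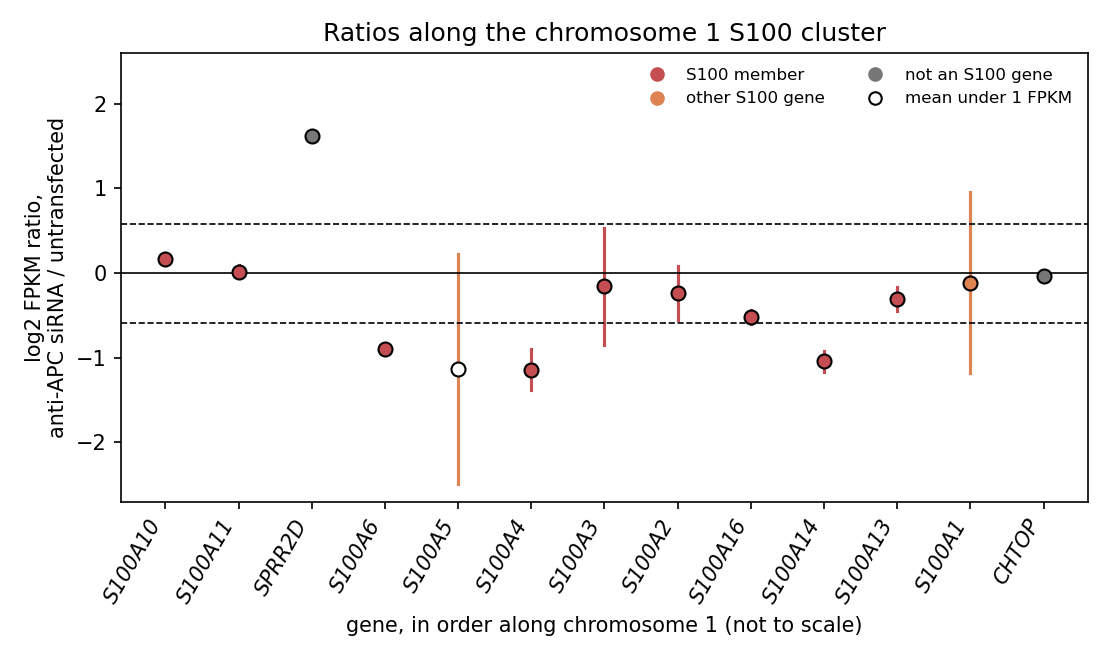
Log2 FPKM ratio (anti-*APC* siRNA over untransfected) of the S100 genes above 0 in both libraries and of the measured genes between them, in order along chromosome 1 and not to scale. Vertical bars are approximate 95% counting intervals (S100 genes only), dashed lines mark 1.5-fold and an open symbol a mean under 1 FPKM. *S100A6*, *S100A4*, *S100A14* and, as an open symbol, *S100A5* lie below the lower line. *S100A3* and *S100A2*, between *S100A4* and *S100A14*, lie nearer 0, and *SPRR2D* is above the upper line.

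Of 11 further genes of the S100 family, *S100A1*, a member known from heart muscle, was the only one measured, at 1.10 FPKM after anti-*APC* siRNA and 1.19 FPKM without. *S100A7*, *S100A7L2*, *S100A8*, *S100A9*, *S100A12*, *S100B* and *S100G* are listed at 0 in both libraries. *S100A8* and *S100A9* encode the calprotectin subunits of myeloid cells, and *S100B* is a glial and melanocytic marker. *S100A7A* and *S100Z* had a value above 0 only in untransfected cells, of 0.00888 and 0.0384 FPKM, which is about the worth of 1 read. None of the 7 S100-fused genes of the epidermal barrier (*CRNN*, *FLG*, *FLG2*, *HRNR*, *RPTN*, *TCHH* and *TCHHL1*) was measured. Summed, the 11 further genes came to 1.495 FPKM after silencing and 2.10 FPKM without, beside 1014 and 1368 FPKM for the 10 members.

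The binding partners were examined from a list of 18 intracellular partners, of which 13 were measured. None was at least 1.5-fold lower and 1 was at least 1.5-fold higher, against 6.52% and 2.51% of all measured genes. Their median log2 ratio was -0.11. *SYT1*, a calcium sensor of vesicle fusion that joins S100A13 in FGF1 export, was the higher gene, at 23.6 FPKM after silencing and 13.95 FPKM without. Cuffdiff placed it at a locus with another gene. *ANXA1*, the partner of S100A11, was at 601 and 418 FPKM, 1.44-fold higher and inside the limit. *ANXA2*, the partner of S100A10, was at 627 and 571 FPKM, so that its level was 2.40 times that of *S100A10* after silencing and 2.47 times without. *AHNAK*, a scaffold that binds the annexin A2 and S100A10 complex, was at 93.4 and 110 FPKM.

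Further partners were inside the 1.5-fold limit. *MYH9*, the non-muscle myosin heavy chain bound by S100A4, was at 107 FPKM after anti-*APC* siRNA and 115.8 FPKM without. *CACYBP*, which binds S100A6, was at 84.7 and 89.0 FPKM, a log2 ratio of -0.07. *EZR*, which encodes ezrin, a partner of S100P that links actin to the membrane, was at 699 and 859 FPKM, a log2 ratio of -0.30. *FGF1* and *IL1A*, the proteins exported with S100A13, were not measured, *FGF1* at 0.234 FPKM after silencing and 0.119 FPKM without and *IL1A* at 0.116 and 0.120 FPKM.

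Among 9 receptors and extracellular partners, 6 were measured, 1 of them at least 1.5-fold lower and none higher, against 6.52% and 2.51% of all measured genes. *PLAU*, the urokinase that activates plasminogen, was at 7.35 FPKM after silencing and 20.0 FPKM without it, with a log2 ratio of -1.44 at a locus that it shares with another gene. S100A10 acts in the same system as a plasminogen receptor, and *PLAT*, the tissue activator, was at 2.69 and 3.02 FPKM. *BSG*, which encodes basigin, a receptor for extracellular S100A9, was at 286 and 283 FPKM. *AGER*, which encodes RAGE, was at 2.29 and 4.41 FPKM on an alternative haplotype contig and was not testable (status NOTEST), and *TLR4* is listed at 0 in both libraries. No secreted S100 protein was measured in this assay.

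As a comparison with proteins of the same fold, 20 other EF-hand genes were listed, of which 17 were measured. None of the 17 was at least 1.5-fold lower or higher, against 6.52% and 2.51% of all measured genes, so the count is near that share. Their log2 ratios ran from -0.47 to 0.24 with a median of -0.14. *CHP1* is not listed under that symbol and *CALU* has the status FAIL. The measured epithelial markers had ratios of the same sign as the lower S100 members, and their part in the result was not tested. All 6 measured epithelial markers were lower, where 58.6% of all measured genes were, with log2 ratios from -0.65 to -0.12 and a median of -0.35, and their summed level over 9 genes was 1295 FPKM after anti-*APC* siRNA and 1650 FPKM without. *CDH1*, which encodes E-cadherin, was at 12.1 and 19.0 FPKM, the only measured epithelial marker past 1.5-fold. Of the 3 markers that were not measured, *KRT20* was higher after silencing, at 0.718 and 0.475 FPKM, and *VIL1* and *CDX1* had values above 0 only there, of 0.0313 and 0.0253 FPKM. In RNA from whole cultures, fewer cells of a type and less RNA per cell cannot be told apart.

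**Figure D5:**
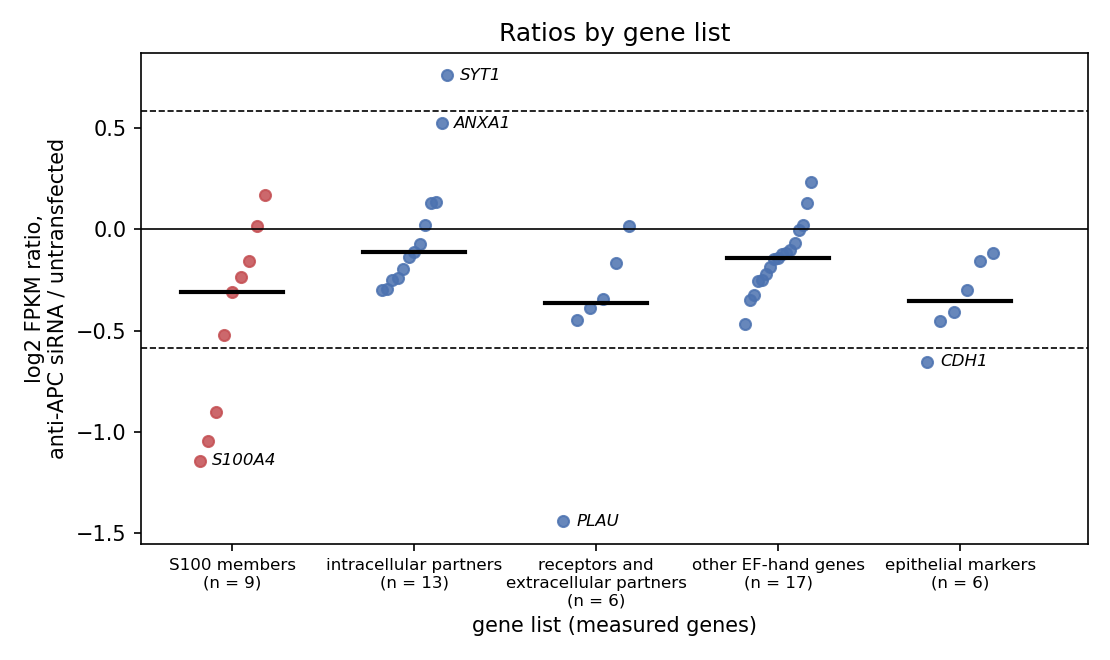
Log2 FPKM ratio (anti-*APC* siRNA over untransfected) of the measured genes of 5 lists, 1 point per gene, with black lines at the medians and dashed lines at 1.5-fold. The members' median is -0.31, and *S100A4*, *S100A14*, *S100A6*, *PLAU* and *CDH1* lie below the lower line while *SYT1* is the only gene above the upper one.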

How the data were processed

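HCT-116 RNA was sequenced as single-read TruSeq libraries, 1 per group. Per the submitters' processing notes and the paper's methods, the authors used Cufflinks and Cuffdiff on hg19. Versions, the aligner and the annotation are not given in the sources used here. The deposited values are FPKM, 1 per gene and library. The same table holds the authors' natural log fold change, test statistic, p-value, q-value and call, which were not used. Loci count from 0, and printed coordinates are 1-based GENCODE 44 on GRCh37.

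The members and lists were chosen with earlier results of these data known. Log2 ratios had no pseudocount. Depth was estimated from the FPKM that 1 read is worth at each transcript length, as the median over 438 genes seen only in the anti-*APC* library and 424 only in the untransfected one, alone at their locus and longer than 1000 bases. Its quartiles were 11.2 and 23.7 M reads, and 11.7 and 25.8 M reads, so read numbers are approximate. Named genes were all members, other S100 genes, each member's best-known partner, and list or neighbouring genes past 1.5-fold. Genes named beyond this rule, such as *PLAT*, *BSG*, *AGER*, *TLR4*, *FGF1*, *IL1A* and single markers, were chosen after their values were seen. Promoter letters came from RefSeq (GRCh38.p14, all 10 members matched) and were placed on GRCh37 by exact match. Some genes are not reported here, and only 6 of the 14 promoter stretches are printed. The ratio and depth functions were tested on simulated data. Python 3.11.15, numpy 2.4.6, pandas 2.3.3 and matplotlib 3.10.9 were used.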

Additional observations from a re-analysis of the deposited data

How the results depend on the processing

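The count of members at least 1.5-fold lower was 3 under every pseudocount, scaling and locus alternative run. It was also 3 with a minimum mean of 0.1 or 10 FPKM or no minimum, and 2 with a minimum of 30 FPKM. With a limit 25% over the lower library the count lower was 4, and with a limit of 2-fold it was 2. The count of members higher was 0 under all of these settings. Scaling moved every ratio by one shift, the median of -0.05, the total of 0.06 or the upper quartile of -0.04 on the log2 scale. The summed level had a log2 ratio of -0.38 with the median subtracted, -0.49 after rescaling to a common total, -0.39 with upper quartile scaling and -0.15 without *S100A6*. Over all genes, 298 were higher and 774 lower past 1.5-fold. A pseudocount of 1 FPKM left 432 lower, and 10 FPKM left 90 higher and 102 lower. A minimum mean of 0.1 FPKM gave 563 higher and 1421 lower, one of 10 FPKM gave 130 and 219, and none gave 748 and 1687. Limits of 25% and 2-fold gave 844 and 2179, and 107 and 157. Genes alone at their locus gave 173 higher. The minima and the locus rule change which genes are counted, the limits change what counts as past, and a pseudocount shrinks the ratios of low genes. No member past 1.5-fold changed sign. Among the others *S100A11* did, at -0.05 after rescaling to a common total. No 2 members shared a locus, so summing members by locus changed nothing. The scrambled siRNA library as the control was not run. No paired analysis was possible because each group had 1 library. With 1 library per group, spread between cultures is unknown, and for *S100A3* and *S100P* depth limits what could be seen.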

Other observations

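Between *S100A11* and *S100A6* lie genes of the epidermal cornified envelope. Of the 47 genes that are not S100 genes from *S100A10* to *S100A13*, 30 are listed at 0 in both libraries and 2 were measured, *CHTOP* and *SPRR2D*. *SPRR2D*, a small proline-rich envelope precursor, was at 3.92 FPKM after silencing and 1.27 FPKM without, 3.08-fold higher. Of the 7 *SPRR2* genes listed, 6 were higher after anti-*APC* siRNA and 1 is listed at 0 in both libraries, with sums of 4.92 and 1.44 FPKM. Of all 11874 measured genes, 4920 were higher, and no such share was computed for genes under 1 FPKM. The *SPRR2* genes are close copies of each other, so the division of reads among them is uncertain. Their directions are therefore not separate observations, and all but *SPRR2D* were under 0.4 FPKM. *HRNR*, which encodes the S100-fused protein hornerin, was at 0.223 and 0.0922 FPKM. *PADI3*, whose product modifies S100A3, was at 0.0266 FPKM after anti-*APC* siRNA and 0.133 FPKM without, under the minimum of 1 FPKM.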
